A study of Mus musculus with 8 samples.

Results

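The genes described here encode the machinery that copies DNA. They cover the factors that license replication origins, the helicase that opens them, and the polymerases and clamp proteins of the fork. Also covered are the proteins that guard the fork and repackage the new DNA, and the E2F and cyclin E regulators of the set. All were taken as a list of 53 genes named by function. Each was measured by its probe set of 1 gene symbol with the highest mean over all 8 arrays. Of the 53, 52 had such a probe set and Chaf1a had none. All 52 were bright enough to test, among 10547 tested genes of 18193 named on the array.

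Germinal centres are the sites in lymphoid tissue where B cells answering an antigen divide, mutate their antibody genes and compete for T cell help. Cells were B220+CD38-CD95+ germinal centre B cells of C57BL/6 mice, taken from lymph nodes on day 12 of the response to NP-KLH in alum given subcutaneously. All samples share this strain, antigen and time. They were sorted into 2 populations with 4 arrays each, titled light zone and dark zone, which the labels call biological replicates without saying how many mice each drew on. The labels' protocol writes the sort gates the other way round from the usual definition, in which dark zone cells are high in CXCR4 and low in CD83. In mRNA, mean intensities of Cd83 were 7381.5 (light) and 1478.3 (dark), and those of Cxcr4 803.9 and 1571.1, so both followed the usual definition of the titled zone. Samples were grouped by title.

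Replication is prepared in G1, when the origin recognition complex (ORC), Cdc6 and Cdt1 load the ring-shaped MCM helicase onto origins. At the start of S phase the kinases Cdc7-Dbf4 and cyclin E-Cdk2 convert loaded MCM into an active helicase with Cdc45 and GINS. Primase and polymerase alpha then start each strand, polymerases epsilon and delta extend it on the sliding clamp PCNA, and ligase seals the fragments. Most of these genes are classical targets of the E2F transcription factors. In the germinal centre the light zone is known as the place of selection and cell cycle entry, and the dark zone as the place of repeated division.

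Because E2F control is the feature this set is best known for, promoter windows of the members were searched for the E2F site. Windows run from 250 bases before to 50 bases after a gene's start, from RefSeq on build GRCm38.p6. The letters searched were TTTCGCGC, TTTGGCGC, TTTCCCGC and TTTGCCGC on both strands, and matches may overlap. Of the 53 members 43 had a window, and 19 of those 43 (44.2%) held a site in at least 1 window. The share was 2.6% of all 27025 genes in the table and 4.98% of the 8572 tested genes in it. By role, a site was found in 4 of 6 licensing genes, 5 of 10 helicase and firing genes, 5 of 15 polymerase and fork synthesis genes, 1 of 5 fork protection and chromatin assembly genes, and 4 of 7 E2F and cyclin E genes. It was present in 8 of the 14 members with a window that were higher in the dark zone, in 2 of the 3 that were lower, and in 9 of the 25 not past the test (Chaf1a had a window and no probe set). A different element, CHR (TTTGAA, both strands), which is known from mitotic promoters, was in 10 of the 43 members (23.3%), against 20.2% of all genes, 14.1% of tested genes and 14 of 21 mitotic genes (66.7%). The mitotic genes held the E2F site in 1 of 21 (4.76%). The CCAAT box (CCAAT, both strands) was in 28 of 43 members (65.1%), 19 of 21 mitotic genes (90.5%), 41.1% of all genes and 42.8% of tested genes. A match describes letters in a window and shows no binding. Members with no window in the table were Mcm4, Gmnn, Ccne2, Gins1, Gins2, Gins4, Pole, Prim2, Rfc2 and Tipin.

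Windows of 4 members with a site are shown, written 5′ to 3′ on the strand of the gene with the E2F letters in capitals. They are the member past the test with the largest difference in each direction among those with a site, and the next largest from 2 other roles. Pola1 (chrX:93632106-93632405, minus strand) was higher in the dark zone and E2f3 (chr13:29986014-29986313, minus strand, 1 of 2 windows) was lower. Dtl (chr1:191575495-191575794, minus strand) and Mcm6 (chr1:128359656-128359955, minus strand) were both higher in the dark zone. Counted from the start of transcription, the first base of the site lies at -138 in Pola1, -11 in E2f3 and -8 in Dtl. Mcm6 has 3 matches, at -110, -106 and -47, of which the first pair overlap and appear as 1 run of capitals.
Pola1: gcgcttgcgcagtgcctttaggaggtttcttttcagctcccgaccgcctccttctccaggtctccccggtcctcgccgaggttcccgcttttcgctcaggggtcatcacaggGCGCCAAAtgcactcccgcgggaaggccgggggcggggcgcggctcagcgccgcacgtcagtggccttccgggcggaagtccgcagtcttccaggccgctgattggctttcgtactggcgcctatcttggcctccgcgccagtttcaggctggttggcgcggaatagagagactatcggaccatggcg
E2f3: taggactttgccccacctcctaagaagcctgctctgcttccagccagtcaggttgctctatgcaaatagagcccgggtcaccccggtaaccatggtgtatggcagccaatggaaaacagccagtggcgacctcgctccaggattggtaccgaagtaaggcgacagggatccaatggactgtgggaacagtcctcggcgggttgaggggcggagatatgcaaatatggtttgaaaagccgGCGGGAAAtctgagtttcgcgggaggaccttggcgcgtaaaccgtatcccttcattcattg
Dtl: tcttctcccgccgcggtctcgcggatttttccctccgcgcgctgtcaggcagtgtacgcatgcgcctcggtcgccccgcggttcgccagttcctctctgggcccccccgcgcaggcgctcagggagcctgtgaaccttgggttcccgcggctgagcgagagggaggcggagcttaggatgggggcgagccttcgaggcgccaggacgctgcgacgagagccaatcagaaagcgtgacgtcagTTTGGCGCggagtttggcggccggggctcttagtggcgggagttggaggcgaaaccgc
Mcm6: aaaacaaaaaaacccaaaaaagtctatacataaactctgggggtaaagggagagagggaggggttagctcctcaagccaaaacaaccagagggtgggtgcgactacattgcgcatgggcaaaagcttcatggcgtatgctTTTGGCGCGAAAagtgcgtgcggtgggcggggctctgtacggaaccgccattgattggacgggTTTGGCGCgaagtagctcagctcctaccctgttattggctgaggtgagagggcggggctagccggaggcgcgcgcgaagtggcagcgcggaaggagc

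Replication genes moved little between the zones, and those that moved were mostly higher in the dark zone. By a limma test across all genes at an adjusted p of 0.05, 17 of the 52 (32.7%) rose in the dark zone, 3 (5.77%) fell and 32 (61.5%) stayed short of the threshold. Among all tested genes 19.1% had the higher level in the dark zone and 24.8% the lower, or 43.9% in either direction. The share of members called (38.5%) was thus near that of all genes, while the split between directions leaned to the dark zone. The count also depends on the choice of probe set. More members were higher with probe sets averaged, a setting for which the share of all genes is not given. The median difference, dark minus light on the log2 scale, was 0.12 for the members and -0.01 for all tested genes. Above 0 were 38 of 52 members, against 5194 of 10547 tested genes. The largest rise was 0.66, a factor of 1.58. A difference of at least 0.5 in either direction was found in 4 of 52 members, against 1414 of 10547 tested genes. These 4 were Rfc1, Pola1 and Dbf4 upward and Pold2 downward. In 26 members all 4 dark zone arrays lay above all 4 light zone arrays, and in 3 all lay below, where the shares for all tested genes were 18.1% and 23.2%. The arrays were normalized to nearly equal distributions, and cells were measured in bulk, so a larger fraction of cells in S phase and more RNA per cell cannot be told apart.

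**Figure D1:**
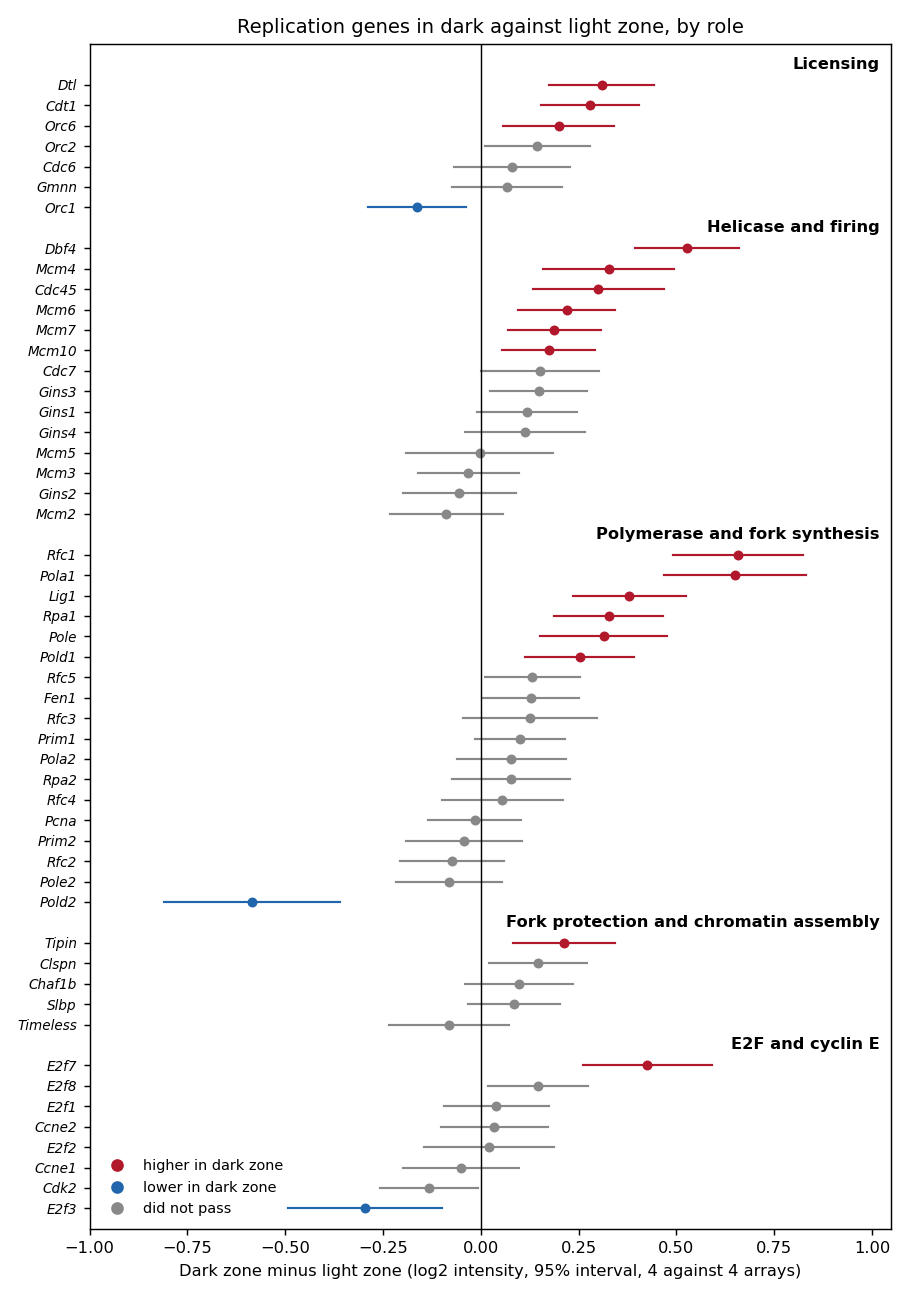
Difference between zones for the 52 measured members, dark zone minus light zone in log2 intensity, with the 95% interval from limma on 4 against 4 arrays. Genes are grouped by role and coloured by call; 17 lie to the right and past the test, 3 to the left, and 3 points lie above 0.5.

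Among the licensing genes, 3 of 7 rose in the dark zone (42.9%, against 19.1% of all tested genes) and 1 fell (14.3%, against 24.8%). The other 3 stayed short of the threshold, and the median was 0.14. Dtl, the substrate receptor of the ubiquitin ligase that destroys Cdt1 during S phase, had intensities of 481.6, 421.5, 428.6 and 438.2 on light zone arrays and 529.5, 563.8, 554.2 and 543.0 in the dark zone arrays. Its groups did not overlap, and it rose by 0.31 (SE 0.06, limma adjusted p = 0.0015). Cdt1, which brings the MCM ring to origins and is the target of that ligase, had 2134.8, 1983.4, 2142.1 and 2171.6 on light zone arrays and 2646.9, 2504.3, 2481.5 and 2600.7 in the dark zone. Every dark zone array was above every light zone array, with a rise of 0.28 (SE 0.06, limma adjusted p = 0.0020). Both the loader and its destroyer were thus measured higher in the same arrays. Orc6, an ORC subunit, rose by 0.20 (SE 0.07, limma adjusted p = 0.028). The Orc6 call was lost when light zone array 1 (0.18, limma adjusted p = 0.069) or 4 (0.19, 0.067) was left out, and likewise for dark zone array 2 (0.15, 0.084) or 3 (0.19, 0.059). Orc1, the largest ORC subunit, went the other way, at 114.9 ± 4.7 (SD, n = 4) over light zone arrays and 102.5 ± 2.8 (SD, n = 4) in the dark zone, a difference of -0.16 (SE 0.06, limma adjusted p = 0.036). Leaving out any 1 of 6 arrays (all but the second of each zone) ended the Orc1 call, with differences of -0.14 to -0.17 and limma adjusted p from 0.052 to 0.097. The mean of its probe sets gave -0.06 (limma adjusted p = 0.31), and its dimmer probe set alone 0.04.

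The remaining licensing genes did not pass. Orc2 was at 0.14 (SE 0.06, 95% interval 0.01 to 0.28, limma adjusted p = 0.077) with arrays that did not overlap. A dimmer probe set of Orc2 passed at 0.47 (SE 0.08, limma adjusted p over probe sets = 0.00079), and another gave 0.15 without passing. With its probe sets averaged Orc2 was at 0.25 and passed (limma adjusted p = 0.0023). Cdc6, the ATPase that works with ORC to load MCM, was at 0.08 (95% interval -0.07 to 0.23). Gmnn, whose protein geminin blocks Cdt1 after origins have fired, was at 0.07 (95% interval -0.07 to 0.21). The intervals of Cdc6 and Gmnn hold 0 and leave out a change of 0.25 in either direction.

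Of the 14 helicase and firing genes, 6 rose in the dark zone (42.9%, against 19.1% of all tested genes). The other 8 stayed short of the threshold, and the median was 0.15. None fell by limma, and 0 did so at an unadjusted p under 0.05. The largest difference was in Dbf4, the regulatory subunit that activates the Cdc7 kinase. Dbf4 had 1417.0, 1564.6, 1479.5 and 1447.4 on light zone arrays and 2249.1, 2160.6, 2080.0 and 2024.8 in the dark zone, a rise of 0.53 (SE 0.06, limma adjusted p = 2.4e-05). The lowest dark zone array was well above the highest light zone array. Cdc7 itself was at 798.1 ± 50.5 (SD, n = 4) over light zone arrays and 885.9 ± 55.1 (SD, n = 4) in the dark zone, a difference of 0.15 that did not pass (limma adjusted p = 0.097). Its dimmer probe set, at a mean intensity of 84.7 against 839.6, gave 0.88 (SE 0.08, limma adjusted p over probe sets = 6.1e-06). The 2 probe sets of Cdc7 thus give unlike values.

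Cdc45, which joins MCM and GINS to form the active helicase, had 302.6, 291.1, 287.8 and 300.6 on light zone arrays and 369.9, 376.8, 402.2 and 312.4 in the dark zone. Dark zone replicate 4 lay close to the light zone arrays and the groups still did not overlap; the rise was 0.30 (SE 0.08, limma adjusted p = 0.0074), and 0.18 with its probe sets averaged. Mcm10, a firing factor that binds the helicase, rose by 0.17 (SE 0.05, limma adjusted p = 0.021), or by 0.16 without light zone replicate 2, when the call was lost (limma adjusted p = 0.055). With its probe sets averaged Mcm10 was at 0.10 (limma adjusted p = 0.099), but that mean takes in probe sets at 11.8 and 24.6, below the filter. None of the 4 GINS genes passed in limma, and 1 (Gins3) had an unadjusted p under 0.05: Gins1 was at 0.12, Gins3 at 0.15, Gins4 at 0.11 and Gins2 at -0.06. The arrays of Gins1 and Gins3 did not overlap. Gins3 was the nearest to the threshold (limma adjusted p = 0.055) and passed in 3 of 17 alternatives, its limma adjusted p ranging from 0.029 to 0.13.

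The 6 genes of the MCM ring, whose products join in equal numbers, did not give equal differences. Mcm4 had 2995.0, 2384.9, 2727.9 and 2675.5 on light zone arrays and 3395.8, 3506.9, 3495.0 and 3099.1 in the dark zone, a rise of 0.33 (SE 0.08, limma adjusted p = 0.0044). Light zone replicate 1 was the highest of its zone and still below every dark zone array. Mcm6 rose by 0.22 (SE 0.06, limma adjusted p = 0.0083) and Mcm7 by 0.19 (SE 0.05, limma adjusted p = 0.015), with no overlap of arrays in either. Mcm2 was at -0.09 (95% interval -0.23 to 0.06) and Mcm3 at -0.03 (-0.16 to 0.10). Mcm5 had a mean of 6027.6 ± 358.3 (SD, n = 4) over light zone arrays and 6038.9 ± 750.7 (SD, n = 4) in the dark zone, with dark zone replicate 4 the highest of all arrays at 7126.7. That the genes past the test differ from the others was not tested. Which MCM genes pass also depends on the probe set. The dimmer probe set of Mcm4 gave 0.01, and the dimmer one of Mcm6 bright enough to test gave 0.03. With probe sets averaged these genes were at 0.17 and 0.13, both still called. The Mcm6 mean takes in a probe set below the filter, at 16.5. Both flat probe sets, and the brightest one of Mcm5, are of a design (_x_at) whose probes can match other transcripts. The 2 dimmer Mcm5 probe sets without that mark gave 0.30 and 0.47, both past the test over probe sets (limma adjusted p = 0.0048 and 0.00047). Their mean intensities were 844.6 and 53.1, against 6012.8 for the brightest. Of 4 dimmer probe sets of Mcm3, 1 gave 0.69 (limma adjusted p = 0.00024) and the others -0.03 to 0.05. All 3 dimmer probe sets of Mcm7 passed, at 0.18, 0.24 and 0.43. The one at 0.18 is also of the _x_at design. So are the brightest probe sets of Pold1, which was called, and of Fen1 and Ccne1, which were not. Whether that design bears on any of these values was not tested.

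Polymerase and fork synthesis genes held both the largest rises and the largest fall of the set. Of 18, 6 rose in the dark zone (33.3%, against 19.1% of all tested genes) and 1 fell (5.56%, against 24.8%). The other 11 stayed short of the threshold, and the median was 0.11. Rfc1, the large subunit of the clamp loader that opens PCNA onto DNA, had 1520.3, 1307.6, 1494.5 and 1297.8 on light zone arrays and 2155.6, 2433.8, 2061.1 and 2204.3 in the dark zone. The groups were far apart, and the rise was 0.66 (SE 0.08, limma adjusted p = 2.7e-05). Its 2 dimmer probe sets each gave 0.72 and passed. The 4 small subunits of the loader did not pass: Rfc5 was at 0.13, Rfc3 at 0.13, Rfc4 at 0.06 and Rfc2 at -0.07. A dimmer probe set of Rfc4 passed at 0.23, and one of Rfc2 at -0.23.

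Pola1, the catalytic subunit of the polymerase that starts each new strand, had 658.4, 648.1, 656.0 and 592.7 on light zone arrays and 1169.0, 904.8, 927.9 and 1025.0 in the dark zone. It rose by 0.65 (SE 0.08, limma adjusted p = 5.7e-05), a factor of 1.57, with no overlap. The other genes of the same complex did not pass. Its second subunit Pola2 was at 0.08 (95% interval -0.06 to 0.22), the primase catalytic subunit Prim1 at 0.10 (-0.01 to 0.22) and the primase large subunit Prim2 at -0.04 (-0.19 to 0.10). The interval of Pola1 (0.47 to 0.83) does not meet any of these 3, though the differences between genes were not tested. These intervals are of the brightest probe sets only. Dimmer ones of Pola2 passed in both directions, at 0.32 and -0.24, with mean intensities of 38.9 and 34.5. A dimmer one of Prim1 gave -0.13 without passing. With its probe sets averaged, which takes in one below the filter, Pola1 was at 0.52 and still called.

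The catalytic subunits of the extending polymerases were also higher. Pole, which copies the leading strand, had 575.1, 532.4, 579.1 and 481.8 on light zone arrays and 728.2, 673.2, 663.0 and 627.3 in the dark zone, a rise of 0.31 (SE 0.07, limma adjusted p = 0.0049). Pold1, which copies the lagging strand, had 1891.8, 1802.6, 1967.9 and 1919.8 against 2071.1, 2239.0, 2315.5 and 2417.6, a rise of 0.25 (SE 0.06, limma adjusted p = 0.0072). In both genes all dark zone arrays were the higher. A dimmer Pold1 probe set gave the same 0.25. Pold2, the accessory subunit that joins Pold1 to the rest of polymerase delta, was the one fork gene that fell. It had 314.7, 325.0, 345.5 and 315.7 on light zone arrays and 256.0, 230.1, 216.9 and 172.0 in the dark zone. Dark zone replicate 4 was the lowest, no arrays overlapped, and Pold2 fell by 0.59 on the log2 scale (SE 0.10, limma adjusted p = 0.00067), with -0.48 to -0.67 over the fits that left out 1 array. Pole2, the accessory subunit of polymerase epsilon, was at -0.08 (95% interval -0.22 to 0.05).

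**Figure D2:**
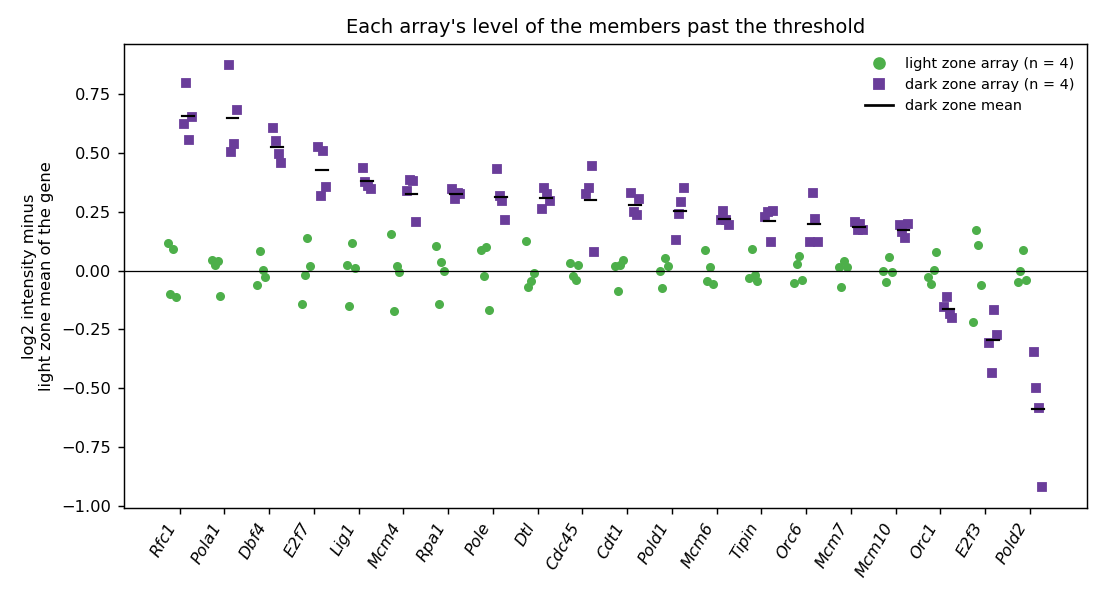
Log2 intensity of each array for the 20 members past the test, relative to the light zone mean of the same gene, with 4 light zone arrays as circles, 4 dark zone arrays as squares and the dark zone mean as a bar. Rfc1, Pola1 and Dbf4 stand highest and Pold2 lowest, and E2f3 is the one gene whose zones overlap.

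Of the fork's other enzymes, Lig1, the ligase that seals lagging strand fragments, had 1021.4, 905.3, 1089.5 and 1013.0 on light zone arrays and 1357.9, 1303.1, 1291.4 and 1278.9 in the dark zone. All dark zone arrays were above the light zone arrays, with a rise of 0.38 (SE 0.07, limma adjusted p = 0.00063). Rpa1, the large subunit of the protein that coats single-stranded DNA, had 4674.6, 3936.7, 4466.7 and 4348.7 against 5526.0, 5371.2, 5470.9 and 5453.5. It rose by 0.33 (SE 0.06, limma adjusted p = 0.0014), and its dimmer probe set by 0.49. Its partner Rpa2 was at 0.08 (95% interval -0.07 to 0.23), while a dimmer Rpa2 probe set passed at 0.55 (SE 0.11, limma adjusted p over probe sets = 0.0025). Pcna, the sliding clamp, had means of 5864.9 ± 128.8 (SD, n = 4) over light zone arrays and 5802.2 ± 162.4 (SD, n = 4) in the dark zone, a difference of -0.02 with a 95% interval of -0.13 to 0.10. Fen1, the nuclease that trims the fragments before ligation, was at 0.13 (95% interval 0.00 to 0.25, limma adjusted p = 0.088), and its other probe set at -0.08.

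Of the 5 measured genes of fork protection and chromatin assembly, 1 rose in the dark zone and 4 stayed short of the threshold, with a median of 0.10. None fell by limma, and 0 did so at an unadjusted p under 0.05. Tipin, which with Timeless couples the helicase to the polymerases, had 1720.1, 1871.3, 1736.4 and 1704.7 on light zone arrays and 2056.0, 2090.1, 1911.5 and 2092.6 in the dark zone. The groups did not overlap and Tipin rose by 0.21 (SE 0.06, limma adjusted p = 0.013). Its partner Timeless was at -0.08 (95% interval -0.23 to 0.07), and a dimmer Timeless probe set passed at 0.32 (SE 0.08, limma adjusted p over probe sets = 0.0095). Clspn, the mediator that carries the checkpoint signal at stalled forks, was at 0.15 (limma adjusted p = 0.057) with arrays that did not overlap. Clspn passed at 0.17 without dark zone replicate 4 (limma adjusted p = 0.039), which makes the count 2, and its dimmer probe set passed at 0.52. Slbp, the binding protein of histone mRNA in S phase, was at 0.09 (95% interval -0.03 to 0.20), and Chaf1b, a subunit of the chromatin assembly factor, at 0.10 (-0.04 to 0.24).

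Of the 8 E2F and cyclin E genes 1 rose and 1 fell (12.5% each, against 19.1% higher and 24.8% lower among all tested genes). The other 6 stayed short of the threshold, and the median was 0.03, the lowest of the roles. E2f7, a repressor E2F that shuts the program off late in S phase, had 225.4, 245.4, 273.6 and 251.9 on light zone arrays and 357.6, 309.3, 353.0 and 317.9 in the dark zone. Its arrays did not overlap and it rose by 0.43 (SE 0.08, limma adjusted p = 0.00072). E2f8, the related repressor, was at 0.15 (SE 0.06, limma adjusted p = 0.060), also with no overlap, and passed in 3 of 17 alternatives, its limma adjusted p ranging from 0.0015 to 0.16. E2f3, an activator E2F, fell by 0.30 on the log2 scale (SE 0.09, limma adjusted p = 0.019), from 174.6 ± 20.9 (SD, n = 4) in the light zone to 141.8 ± 10.9 (SD, n = 4) in the dark zone. Its arrays overlapped, and leaving out light zone array 2 (-0.24, limma adjusted p = 0.059) or 3 (-0.26, 0.056), or dark zone array 2 (-0.25, 0.059), ended the call. Its dimmer probe set gave -0.08, and the mean of both -0.19.

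The activators E2f1 and E2f2 and the cyclins that drive S phase entry did not pass. E2f1 was at 0.04 (95% interval -0.09 to 0.17), E2f2 at 0.02 (-0.15 to 0.19), Ccne1 at -0.05 (-0.20 to 0.10) and Ccne2 at 0.04 (-0.10 to 0.17). Cdk2, the kinase partner of cyclin E, was at -0.13 (-0.26 to -0.01, limma adjusted p = 0.082) with arrays that did not overlap. No difference between roles was tested. Their medians ran from 0.03 for E2F and cyclin E to 0.15 for helicase and firing, all within the range of single members of each role.

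Several members are read by more than 1 probe set, which gives a second measurement in the same arrays. Other probe sets bright enough to test were found in 9 members higher in the dark zone. Of these 15 probe sets, 14 had the same sign and 8 passed, in Cdt1, Mcm7, Pold1, Rfc1 and Rpa1. The 14 include values within their SE of 0: Mcm4 (0.01, SE 0.07), Mcm6 (0.03, SE 0.07), Dtl (0.04, SE 0.06) and Cdc45 (0.07, SE 0.08). The dimmer probe set of Cdt1 gave 0.20, that of Cdc45 0.07 without passing, and those of Dtl -0.08, 0.04, 0.17 and 0.26, none past the test. With probe sets averaged, which takes in those too dim to test, Cdt1 was at 0.17 and Dtl at 0.23, both still called. Probe sets too dim to test gave 0.38 for Pola1, 0.46 for Dbf4, 0.66 for Dtl and 0.03 for Cdt1. No dimmer probe set of a risen member passed in the other direction. Of the 23 members that did not pass and had another bright probe set, 9 had one higher in the dark zone: Cdc7, Clspn, Mcm3, Mcm5, Orc2, Pola2, Rfc4, Rpa2 and Timeless. In all, 10 of 32 such probe sets were higher and 2, of Pola2 and Rfc2, were lower. Among all 18851 probe sets of 1 symbol above the filter, 20.7% were higher in the dark zone and 21.6% lower.

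**Figure D3:**
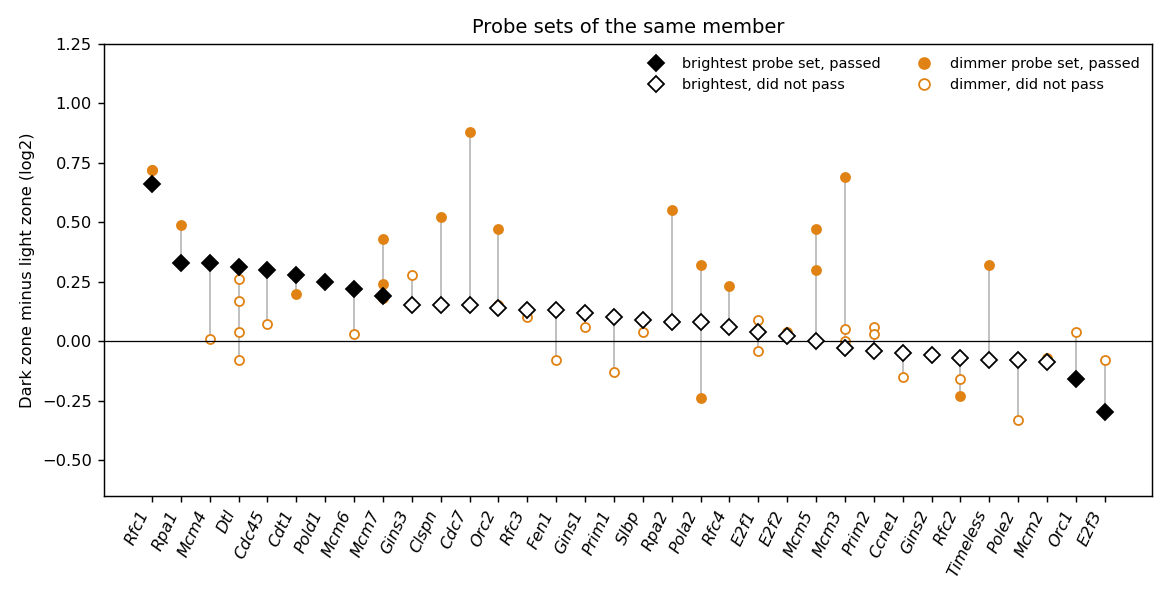
Dark zone minus light zone in log2 for members with at least 1 further probe set above the filter, the brightest probe set as a diamond and dimmer ones as circles, filled where the limma adjusted p over probe sets is under 0.05. Rfc1, Rpa1 and Mcm7 agree across probe sets, while Cdc7, Mcm3, Mcm5, Rpa2 and Timeless have a filled circle above an open diamond.

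Further genes of the pathway outside the list are given by function, and their counts stand beside 19.1% higher and 24.8% lower among all tested genes. Of 27 other fork genes, 12 rose in the dark zone and 1, Uhrf1 (-0.23), fell, with a median of 0.13. The largest rises were in the topoisomerases Top1 (0.90, SE 0.06) and Top2a (0.57, SE 0.07), which release torsion in the DNA being copied, and the histone chaperone Asf1a (0.60, SE 0.06). Of 20 other origin and helicase genes, 4 were higher and 4 lower, with a median of -0.02. Ticrr, a partner of Topbp1 in firing, was at 0.41, Fbxo5, an inhibitor of the anaphase-promoting complex, at 0.32 and Mcmbp, an MCM-binding protein, at 0.25. The helicase Ddx11 was at -0.33, the ubiquitin ligase scaffold Cul4a at -0.28 and the fork factor Donson at -0.27. Of 13 S phase checkpoint genes, 3 were higher (Cdc5l, a splicing factor, at 0.42, Rad18 at 0.33 and Smarcal1 at 0.21) and 3 lower (Atr, the kinase of the pathway, at -0.33, the checkpoint clamp loader Rad17 at -0.29 and Wee1 at -0.21), with a median of -0.02.

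Of 13 other E2F, DP and pocket protein genes, 5 were higher and 2 lower, with a median of 0.08. The E2F partner Tfdp2 was at 0.47, the pocket protein gene Rbl2 at 0.32 and Lin52, of the DREAM complex, at 0.29. The retinoblastoma gene Rb1 was at -0.23 and E2f5 at -0.22. Nucleotide supply genes leaned the other way: of 18, 8 were lower in the dark zone and 3 higher (Dck at 0.29, Ppat at 0.21 and Rrm1 at 0.17), with a median of -0.06. Dctd, which supplies the precursor of thymidylate, was at -1.58 (SE 0.09), with mean intensities of 64.7 (light) and 21.7 (dark). The latter is below the filter of 27.8, so Dctd was tested only through its light zone level. Cad and Dhodh, of pyrimidine synthesis, were at -0.72 (SE 0.07) and -0.64 (SE 0.08). All 25 mitotic genes with a probe set rose in the dark zone, from 0.25 (Cks2) to 1.96 (Kif20a), with a median of 1.04. Nek2 was at 1.75 and Ccnb2 at 1.64. The largest rise among the members, 0.66 in Rfc1, was thus below the mitotic median. The difference between the lists was not tested.

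**Figure D4:**
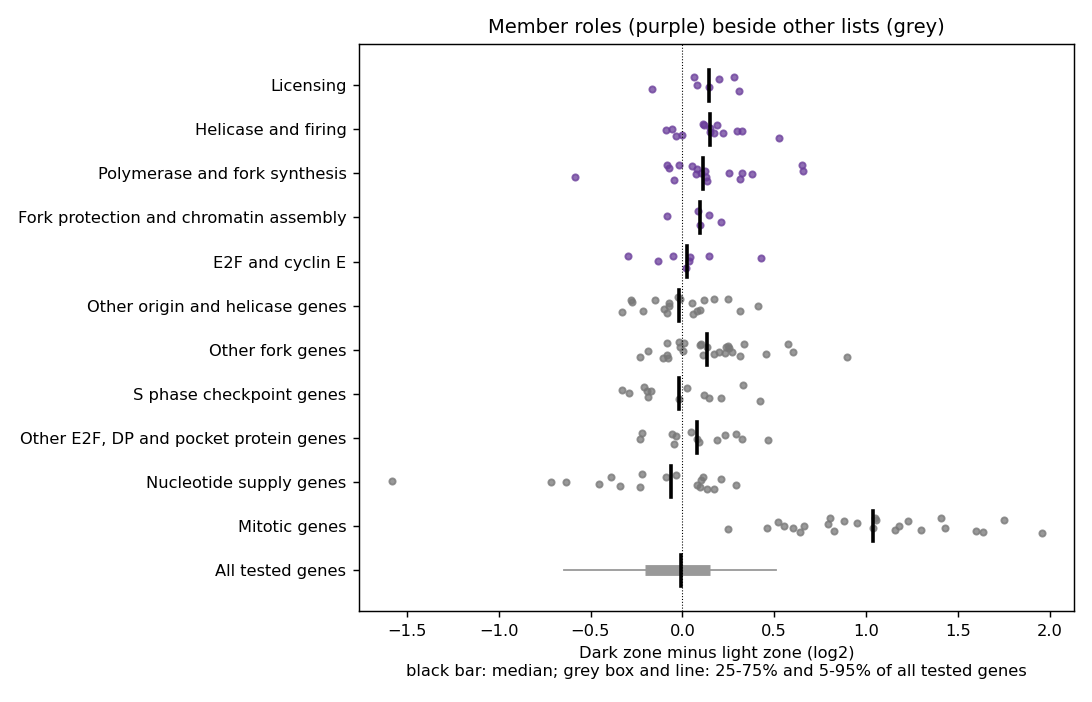
Dark zone minus light zone in log2 for each tested gene of the 5 member roles (purple) and 6 other lists (grey), with the median as a black bar and the spread of all tested genes below. Role medians lie between 0.03 and 0.15, and that of the mitotic genes at 1.04.

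Arrays of the same zone correlated at 0.995 to 0.997 over the tested genes and arrays of different zones at 0.974 to 0.980. The B cell gene Ms4a1 was bright in both zones (10429.2 and 10055.1), as were Cd79b and Bcl6. Germinal centre B cell markers summed to 22123.6 to 22788.9 over the light zone arrays and 23718.2 to 24495.4 over the dark zone arrays, with 2 of 8 higher in the dark zone and 1 lower. Naive and memory markers had a summed intensity of 2748.7 to 2960.0 on light zone arrays and 585.3 to 650.2 in the dark zone. Fcer2a held 81.6% of that sum, and both tested ones were lower in the dark zone. Of 5 tested plasma cell markers, 2 were lower in the dark zone and 1 higher, with sums of 10766.3 to 12082.6 and 11732.2 to 12275.8. Jchain, the higher one at 0.15, held 73.7% of the sum, so the sums mostly follow that gene. Irf4 was at -2.03 and Prdm1 at -1.37. Of the 2 lower, Prdm1 had a dark zone mean of 17.6, below the filter, and was tested only through its light zone mean of 45.4. T cell markers summed to 204.3 to 213.5 and 197.1 to 208.6, with 7 of 9 below the filter, and stromal markers to 209.1 to 222.1 and at most 218.0, with 6 of 8 below it. The 2 tested genes of each did not pass. Myeloid markers summed to 421.4 to 523.4 on light zone arrays and 475.9 to 1309.5 in the dark zone, with 4 of 10 below the filter, 3 higher in the dark zone and 1 lower, and Lyz2 as the brightest. The part of these markers in the replication gene differences was not tested.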

How the data were processed

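The deposited values are RMA intensities on a linear scale for 45037 probe sets in 8 arrays. RMA, which corrects background, equalises array distributions and summarises probes, is named in the submitters' processing notes, without a version. No scanner files or detection calls were used. The log2 of each deposited intensity was taken with no pseudocount. Symbols came from the platform annotation: 34945 carry 1 symbol, 932 several and 9160 are unnamed here, and 34741 gene identifiers matched a RefSeq table of GRCm38.p6.

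A gene was represented by its brightest probe set of 1 symbol and tested if its mean log2 was at or above the median of those of all probe sets (intensity 27.8), leaving 10547 genes. Zones were compared with limma 3.58.1 in R 4.3.3 (lmFit, eBayes, two-sided, Benjamini-Hochberg adjusted p under 0.05 over all tested genes), with all 8 arrays and no covariate. Intervals are 95%. P-values measure the spread between these arrays, whose number limits the precision. The same fit over all bright probe sets gave the p-values of dimmer probe sets. The script was tested on simulated data.

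Members, roles, motifs and gene lists were chosen with earlier results of these data known. Array values are given for members past the test with no overlap and a difference of at least 0.25, and for the largest of each role. Of other lists, up to 3 genes in each direction are named. Alternatives varied the filter, probe sets, normalization, variance model, array weights, replicate block and arrays included. Figures used matplotlib 3.10.9 in Python 3.11.15.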

Additional observations from a re-analysis of the deposited data

Results flagged for a closer look

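Dixon's criterion was applied to 104 sets of 4 arrays (52 genes in each zone), and in 4 of them 1 array stood far from the other 3. Chance flags about 1 in 20 such sets. Pola1, the catalytic subunit of the priming polymerase, was lowest in light zone replicate 4, at 592.7 against 648.1 to 658.4 in the others. E2f8, a repressor E2F, was lowest in light zone replicate 1, at 1205.4 against 1315.7 to 1325.2. Ccne1, cyclin E1, was highest in dark zone replicate 4, at 375.6 against 351.5 to 354.0. Pola2, the partner of Pola1, was lowest in the same array, at 443.1 against 459.7 to 461.9. Over the 8 fits that left out 1 array each, Pola1 stayed past the limma threshold in all 8, with differences of 0.58 to 0.70, and E2f8, Ccne1 and Pola2 passed in none.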

How the results depend on the processing

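Of the 17 members higher in the dark zone, 15 were called in every one of 17 alternatives, and of the 3 lower, Pold2 was; Mcm10 and Cdk2 had no value with plain probe sets (IDs without _s, _x or _a), which were too dim. The number of members higher was 20 with the filter at the 60th percentile and with trend and robust variances. It was 25 with probe sets averaged and 16 to 18 over the fits leaving out 1 array. The number lower was 1 to 2 over those fits, 1 being without light zone replicate 3. The share of all genes called under each alternative is not given here, so counts under the alternatives have no baseline. Centring arrays on their median gave a members' median of 0.09 and 2 lower E2F and cyclin E genes. The licensing gene that was lower (Orc1) was lost, giving 0, with no filter, averaged probe sets, repeated quantile normalization, trend and robust variances, and the replicate block, and leaving out 1 array gave 0 to 1. The licensing median ran from 0.10 to 0.17 over those fits. Averaged probe sets gave 2 lower polymerase and fork genes. Fork protection genes had 2 higher with the 60th percentile filter, averaged probe sets, trend and robust variances, and array weights, and 1 to 2 leaving out 1 array. E2F and cyclin E genes had 2 higher with the 60th percentile filter, averaged probe sets, and trend and robust variances, and 0 to 1 lower leaving out 1 array. Mcm3 turned to 0.13 with averaged probe sets, and Mcm5 to 0.26 with these and 0.30 with plain probe sets. Where an alternative used other probe sets or fewer arrays, that is its construction; for the others the cause was not tested. With the replicate number as a block, 17 members were higher and 2 lower, with a median of 0.12. Deviations of same-numbered arrays correlated at 0.126, 0.189, 0.0596 and 0.243, and those of unlike number at -0.149 to 0.0909. The best correlation was with the same number for 7 of 8 arrays. The labels do not state a pairing, and the main fit used none. A pairing by replicate number remains possible.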
